A study of Rattus norvegicus with 15 samples.

Results

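Synaptic vesicle and SNARE genes were followed in the subfornical organ of the rat, a small sensory structure on the wall of the third ventricle that lies outside the blood-brain barrier and takes part in the control of thirst and energy balance. The genes were taken by symbol alone: synaptotagmins (Syt), synapsins (Syn), SV2 proteins, synaptophysin (Syp), the Snap, syntaxin (Stx), Vamp and Gosr families, syntaxin-binding proteins (Stxbp), complexins (Cplx), Nsf, its adaptors Napa and Napb, and every symbol that begins with Rab3. The rule found 77 genes with 118 probe sets, of 14218 genes and 31099 probe sets in the deposited table. The Rab3 prefix also caught 11 genes of the Rab30 to Rab39 numbers, which are other small GTPases and not Rab3 itself. Without them 66 genes remain, which are not the same set as the 66 genes tested below. Snap91, a clathrin assembly protein, and the Rab3 regulators Rab3gap1, Rab3gap2, Rab3il1 and Rab3ip entered by name as well.

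Membrane fusion in cells is driven by SNARE proteins, which stand on the vesicle (R-SNAREs such as the Vamp proteins) and on the target membrane (syntaxins and Snap proteins) and zip together into a tight bundle. At the synapse, Vamp2, Stx1a and Snap25 form this bundle, synaptotagmins sense calcium, complexins and syntaxin-binding proteins control the timing, and Nsf with Napa and Napb takes the spent bundle apart. Other members of the same families serve traffic through the Golgi and endosomes in every cell type.

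The arrays hold 3 groups of male Sprague Dawley rats, 10 to 12 weeks old: untreated controls, water-deprived rats and rats deprived of food for 48 h. Each group has 5 arrays, and each array is a pool of the subfornical organs of 5 animals, so p-values measure the spread between pools. No genotype, transgene or drug is involved. The labels give no length for the water deprivation, and the series' design text, read literally, says that food was withheld from every group. This leaves the feeding state of the controls and of the water-deprived rats unsettled.

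A signal is the deposited linear intensity of a probe set, and differences are in log2(signal + 16) with the standard error (SE) of a limma fit to all 15 arrays. A probe set passed when its Benjamini-Hochberg adjusted p over all 21729 probe sets tested was under 0.05. Each gene is represented by its brightest probe set over the 15 arrays. Dim probe sets were not tested, which left 66 of the 77 genes and 92 of their 118 probe sets. The 11 genes not tested are Cplx3, Rab37, Rab39a, Stx11, Stx17, Sv2c, Syn3, Syt13, Syt2, Syt6 and Syt7. Just inside the limit of 5.11 lay Syt9 and Syt8, with mean log2 values of 5.17 and 5.23, and just outside lay Syt13 and Sv2c, both at 4.98.

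The arrays also differ in a technical measure that runs with the groups. The ratio of 5′ to 3′ signal of the Actb and Gapdh control probe sets is high (mean log2 ratio above -1) on 7 arrays: the 5 of food deprivation, with arrays 1 and 2 of water deprivation. It is low on the other 8, the 5 controls and water-deprived arrays 3, 4 and 5, where water-deprived array 3 is the lowest at -2.81. This division was made from the data, and nothing in the labels names it. No set holds both controls and food-deprived arrays, so food deprivation and the array set cannot be told apart within a set. The model was therefore also fitted with a term for the array set, in which the difference between food deprivation and control rests on the water-deprived arrays that span both sets. Neuron markers were present on all arrays, with Map2, a neuronal microtubule protein, at signals of 1129 to 1865. Other neuron markers were less steady. Nefm ran from 61.9 to 1138 in control, and Rbfox3 from 86.5 to 195 in control and 29.8 to 51.7 in food deprivation. Of the 20 neuron markers, 10 were above 0 and 10 below between these groups, and none passed. Correlations between arrays over probe sets ranged from 0.894 to 0.983.

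The first comparison asks which members differ when rats lack food. Between control and food deprivation Gosr1, Rab35, Syt11 and Syt8 rose, and Sv2b and Syt5 fell. These are 6 of 66 tested genes (9.09%), against 5.73% of all 11510 genes tested by the same rule, of which 3.12% were higher and 2.62% lower. The members' median difference was -0.01 on the log2 scale, against 0.03 for all genes, and 60 of the 66 differed by less than 1.5-fold. Unadjusted p was under 0.05 for 11 of the 66 and for 21.3% of all genes, so by this measure the members were not above the background. Syt8 was on average below the limit for testing in control. When each array was centred on its median, 8 members passed, 4 higher and 4 lower, with Gosr2 and Stx4 added, and that centring moved the median of all probe sets by about 0.10. None of the 66 passed with the array set as a term, nor did any of the 11510 genes, and 9 members had an unadjusted p under 0.05, as had 8.44% of all genes. Gosr1, Rab35 and Sv2b passed with any 1 array left out, and they alone passed without food-deprived array 1 or 3 or control array 1 or 4. Of these 15 fits, Syt11 and Syt8 passed in 8 each and Syt5 in 5. In pooled tissue, fewer cells of a type and less RNA per cell cannot be told apart.

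**Figure D1:**
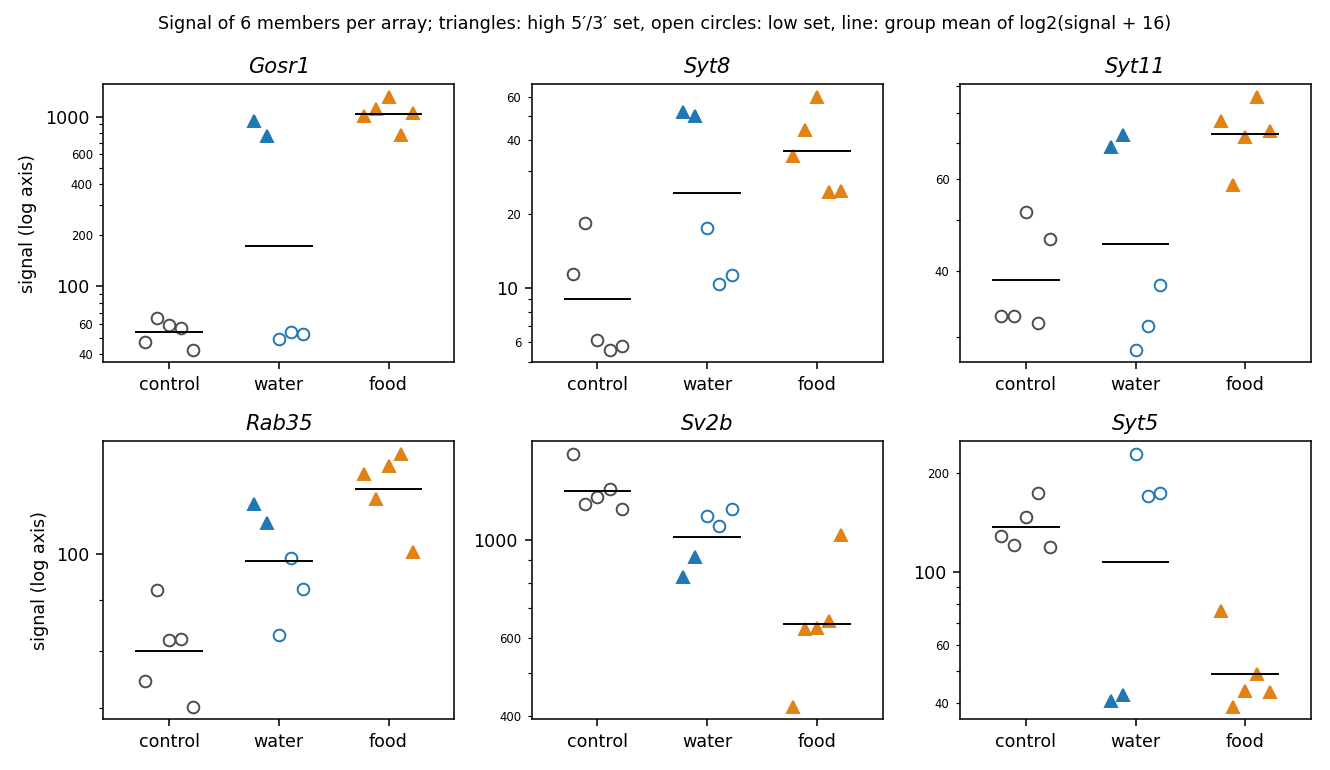
Signal (log axis) of the 6 members that passed between food deprivation and control, per array, with triangles for arrays of the high 5′/3′ set, open circles for the low set and a line at each group mean. For Gosr1 the triangles lie at 774 to 1303 and the circles at 42.5 to 64.9, water-deprived arrays included.

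The promoters of 4 of these genes are shown, so that their upstream letters can be set side by side. By their brightest probe sets, and without the array set term, Gosr1, Syt8 and Syt11 rose and Sv2b fell. Other probe sets of Gosr1 and Sv2b gave other values, printed below. Syt5 has no entry among the promoters, and Rab35, which also rose, is not shown. RefSeq's promoter table, on build GRCr8, holds 62 of the 77 members. Each sequence below is the 250 bases before the gene start, 5′ to 3′ on the strand of the gene, with matches in capitals to TGACG (the core of a cyclic AMP response element) or GGGCGG (a GC box), searched on both strands. TATAAA was searched too and is in none of the 4. Gosr1 lies at chr10:62105316-62105565 on the minus strand, Syt8 at chr1:207017352-207017601 on the plus strand, Syt11 at chr2:176529776-176530025 on the minus strand and Sv2b at chr1:138562259-138562508 on the minus strand.
Gosr1: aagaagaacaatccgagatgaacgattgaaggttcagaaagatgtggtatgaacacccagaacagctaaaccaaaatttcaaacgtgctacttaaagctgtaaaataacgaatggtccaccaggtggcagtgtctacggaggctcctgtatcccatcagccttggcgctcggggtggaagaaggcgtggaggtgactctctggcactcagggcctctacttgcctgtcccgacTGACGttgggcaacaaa
Syt8: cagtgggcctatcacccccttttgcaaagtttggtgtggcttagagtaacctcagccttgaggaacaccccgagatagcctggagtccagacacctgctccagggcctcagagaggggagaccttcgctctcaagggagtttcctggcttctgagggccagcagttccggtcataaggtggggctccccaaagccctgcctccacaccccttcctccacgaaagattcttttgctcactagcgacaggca
Syt11: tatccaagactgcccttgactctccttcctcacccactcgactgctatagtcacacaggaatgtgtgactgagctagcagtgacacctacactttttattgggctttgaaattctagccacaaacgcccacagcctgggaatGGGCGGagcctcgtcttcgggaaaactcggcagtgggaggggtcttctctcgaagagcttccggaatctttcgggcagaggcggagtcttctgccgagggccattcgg
Sv2b: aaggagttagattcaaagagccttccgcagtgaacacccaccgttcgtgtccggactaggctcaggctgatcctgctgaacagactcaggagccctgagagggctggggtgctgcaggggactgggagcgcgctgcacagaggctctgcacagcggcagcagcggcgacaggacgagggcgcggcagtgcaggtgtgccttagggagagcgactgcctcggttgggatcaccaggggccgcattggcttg
The Gosr1 window holds 1 TGACG near its end and the Syt11 window 1 GGGCGG, while the Syt8 and Sv2b windows hold none of the 3 motifs. The Sv2b window, with 64% G and C and 15 CpG dinucleotides, is the richest of the 4, and the Gosr1 window has 50% G and C. Over windows of the same length, GGGCGG is in 64.5% of the 62 member promoters and 32.4% of all 27457, TGACG in 27.4% and 19.0%, and TATAAA in 1.61% and 13.1%. The members' promoters have a median of 62% G and C, against 52% for all, so these shares are set beside different base compositions. These matches describe the letters only.

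Among the Golgi SNAREs, Gosr1 (probe set 1369410_at) encodes a SNARE of the Golgi that acts in transport from the endoplasmic reticulum and within the Golgi stack. Its signal was 47.4, 64.9, 59.3, 56.9 and 42.5 on control arrays 1 to 5 and 1003, 1112, 1303, 776 and 1044 on food-deprived arrays 1 to 5. On water-deprived arrays 1 to 5 it was 947, 774, 49.0, 54.3 and 52.6. The food-deprived and control arrays did not overlap, and the water-deprived group split into arrays 1 and 2 at the food-deprived level and arrays 3, 4 and 5 at the control level. Food deprivation was higher by 3.91 (SE 0.65, 15.1-fold, 5 arrays against 5, adjusted p = 0.00391), and with the array set term the difference was 0.23 (SE 0.23, adjusted p = 0.770). The other 2 probe sets of Gosr1 gave differences of -0.16 (SE 0.10, adjusted p = 0.356) and 0.37 (SE 0.17, adjusted p = 0.176), with signals of 154 to 239 and 36.8 to 88.2 over all arrays. The large difference is therefore carried by a single probe set of the 3. Gosr2, the second Golgi SNARE, had signals of 182 to 225 in control, 171 to 229 in water deprivation and 153 to 192 in food deprivation, a difference of -0.31 (SE 0.10, adjusted p = 0.0618) that missed the threshold.

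Of 16 synaptotagmins, 12 were tested between food deprivation and control. Of these 2 rose and 1 fell, beside 3.12% higher and 2.62% lower of all genes. The median of the 12 was 0.00. Syt5, a vesicle synaptotagmin that binds calcium, gave signals of 129, 121, 148, 175 and 119.7 in control and 76.3, 39.0, 43.7, 49.2 and 43.2 in food deprivation. Water-deprived arrays gave 40.7, 42.2, 229, 170.2 and 175, so arrays 1 and 2 lay in the food-deprived range and arrays 3 to 5 within or above the controls. Syt5 fell by 1.23 (SE 0.35, 2.35-fold, adjusted p = 0.0414), and the value with the array set term was 0.60 (SE 0.25, adjusted p = 0.550), of the opposite sign. Syt11, a synaptotagmin that does not bind calcium in the usual way, gave 32.9, 33.0, 51.8, 31.9 and 46.0 in control, 68.8, 72.5, 28.4, 31.6 and 37.6 in water deprivation and 77.3, 58.4, 72.0, 85.6 and 73.8 in food deprivation. The food-deprived arrays were all above the controls, and again water-deprived arrays 1 and 2 stood with them. Syt11 rose by 0.71 (SE 0.19, 1.63-fold, adjusted p = 0.0332), and with the array set term the value was -0.13 (SE 0.21, adjusted p = 0.867).

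Syt8, a synaptotagmin known mainly from sperm and pancreas, was among the dimmest tested members. Its signals were 11.4, 18.4, 6.11, 5.60 and 5.78 in control, 51.9, 50.4, 17.5, 10.3 and 11.3 in water deprivation and 34.6, 44.2, 60.0, 24.7 and 24.9 in food deprivation. All food-deprived arrays lay above all controls, although control array 2 at 18.4 and food-deprived arrays 4 and 5 at 24.7 and 24.9 are close. Syt8 rose by 1.06 (SE 0.28, adjusted p = 0.0297), and the value with the array set term was -0.16 (SE 0.32, adjusted p = 0.904). Its mean in control, 4.65 in log2(signal + 16), lay under the limit of 5.11, so it was tested through its values in water and food deprivation (means of 5.34 and 5.70), and the size of its change is uncertain. It was the 1 tested member with a group mean under that limit.

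The calcium sensors of fast release gave no call. Syt1, the main calcium sensor of fast synaptic release, had signals of 30.7, 27.0, 31.2, 28.4 and 30.0 in control, 51.4, 56.1, 19.0, 28.8 and 31.0 in water deprivation and 46.7, 39.1, 48.2, 40.8 and 33.7 in food deprivation. The food-deprived and control ranges did not overlap, but the difference of 0.34 (SE 0.16, adjusted p = 0.204) did not pass. Syt4, a synaptotagmin also found on dense-core vesicles, gave 446 to 956 in control and 604 to 854 in food deprivation, a difference of 0.01 (SE 0.20). Syt2, the sensor of many fast synapses of the hindbrain, was not tested, with signals up to 28.5. The other 7 tested synaptotagmins gave differences from -0.34 (Syt12) to 0.29 (Syt16), none of which passed.

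Of 11 vesicle membrane and vesicle-bound proteins, 9 were tested. All 9 had a difference below 0 between food deprivation and control, where 54.5% of all genes were above 0. Their median was -0.27, but Rab3b, Rab3c and Rab3d lay near 0 (-0.05, -0.02 and -0.01) and Sv2b alone passed. In the fit with the array set term 7 of the 9 were above 0, beside 51% of all genes, and the median was 0.32. Leaving out single arrays put up to 3 of the 9 above 0 (without control 2), and an added constant of 1 in place of 16 put 1 above 0. Sv2b, a glycoprotein of synaptic vesicle membranes and a relative of the target of the drug levetiracetam, gave 1559.8, 1204, 1248, 1304 and 1169.8 in control, 824, 913, 1132, 1071 and 1173 in water deprivation and 419.8, 628, 632, 655 and 1024 in food deprivation. All food-deprived arrays were below all controls, and food-deprived array 5 was the closest to them. Sv2b fell by 0.98 (SE 0.17, 1.97-fold, adjusted p = 0.00528), and with the array set term the value kept its sign at -0.61 (SE 0.29, adjusted p = 0.583). Its second tested probe set, at signals of 28.7 to 86.3, gave 0.51 (SE 0.20, adjusted p = 0.118), the opposite sign.

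Rab3a, the GTPase that tethers vesicles at the active zone, gave 482, 689, 508, 546 and 334 in control, 252, 278, 696, 675 and 413 in water deprivation and 363, 244, 275, 374 and 211 in food deprivation. Food-deprived arrays 1 and 4 overlap the lowest control, and the difference of -0.77 (SE 0.27, adjusted p = 0.0859) did not pass. Synaptophysin, the most abundant membrane protein of small synaptic vesicles, gave 439, 546, 415, 573 and 243 in control, 254, 245, 767, 559 and 412 in water deprivation and 331, 369.6, 323, 328 and 333 in food deprivation. The food-deprived arrays lay inside the control range, with a difference of -0.33 (SE 0.27, adjusted p = 0.484). Syn1, which tethers vesicles to actin, gave 95.7 to 159 in control and 95.5 to 128 in food deprivation (difference -0.27, SE 0.24), and Syn2 gave -0.14 (SE 0.34). Sv2a, the levetiracetam target itself, differed by -0.30 (SE 0.24), and Rab3b, Rab3c and Rab3d by -0.05, -0.02 and -0.01.

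No member of the core fusion bundle passed between food deprivation and control. Snap25, a plasma membrane SNARE of neurons and the member with the highest control signal, gave 1735, 2316, 1698, 1772 and 1063 in control, 2118, 1566, 2624, 1788 and 1701 in water deprivation and 1605, 1968, 2081, 2379 and 1961 in food deprivation. Signals of different probe sets do not rank genes by transcript amount. The Snap25 groups overlap, and the difference was 0.25 (SE 0.18, adjusted p = 0.407). Stx1a, the neuronal syntaxin, gave 36.9, 49.7, 47.3, 57.4 and 20.7 in control and 44.7, 6.87, 35.8, 33.4 and 17.3 in food deprivation, where array 2 alone was at 6.87 and the others at 17.3 or more, and differed by -0.47 (SE 0.30, adjusted p = 0.350). Vamp2, the vesicle SNARE of fast release, gave 250.4, 289, 230.3, 215 and 157 in control, 138, 99.4, 268, 333 and 197 in water deprivation and 208, 165, 165, 206 and 130.0 in food deprivation, a difference of -0.35 (SE 0.25, adjusted p = 0.403). Vamp1, its close relative, differed by -0.18 (SE 0.19).

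The 7 Vamp genes in the table were all tested and none passed. Vamp7, an R-SNARE of late endosomes and lysosomes, came closest: all food-deprived arrays (160.5 to 189.8) lay above all controls (97.9 to 151), with a difference of 0.45 (SE 0.14, adjusted p = 0.0516). Water deprivation spanned both, at 114 to 199. Vamp3, Vamp4 and Vamp5 differed by 0.16, 0.10 and 0.21, and Vamp8, an endosomal SNARE also used in secretion by gland cells, by -0.01 (SE 0.30). Among the 15 plasma membrane and endosomal SNAREs, 13 were tested, none passed and differences ran from -0.47 (Stx1a) to 0.27 (Stx8). The steadiest tested members over all arrays were in this group: Stx16, Stx7 and Stx4, syntaxins of the Golgi, of late endosomes and of the plasma membrane, with residual standard deviations of 0.10 on the log2 scale. Stx7, among the 3 members with the highest control signal, gave 675 to 762 in control and 657 to 793 in food deprivation.

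The 14 tested regulators and recycling factors gave no call between food deprivation and control. Nsf, the ATPase that pulls the SNARE bundle apart, differed by -0.29 (SE 0.25, adjusted p = 0.499), and its adaptors Napa and Napb by -0.33 (SE 0.25) and 0.08 (SE 0.28). Napa signals were 512, 535, 439, 574 and 448 in control, 329, 365, 1189.7, 556 and 430.0 in water deprivation and 392, 435, 423, 369 and 348 in food deprivation. All 5 food-deprived arrays were under all controls, and water-deprived array 3 stood far above the other 14. Cplx1 and Cplx2, the complexins of fast release, differed by -0.28 (SE 0.35) and -0.54 (SE 0.47), and Cplx2 was set apart by water-deprived array 3 at 350.4, where no other array exceeded 56.9. Stxbp2, Stxbp3, Stxbp5 and Stxbp6, which bind syntaxins, differed by 0.27, -0.02, 0.37 and 0.17, and Snap91 by -0.18.

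Rab35, an endosomal GTPase that the Rab3 prefix caught, gave 74.6, 92.0, 81.9, 82.2 and 70.3 in control, 112, 107, 83.0, 99.2 and 92.3 in water deprivation and 121, 114, 122.7, 126 and 100.4 in food deprivation. All food-deprived arrays were above all controls, and the water-deprived arrays overlapped both groups. Rab35 rose by 0.46 (SE 0.10, 1.38-fold, adjusted p = 0.0122), and kept its sign with the array set term at 0.24 (SE 0.15, adjusted p = 0.653). The other 8 tested genes of the Rab30 to Rab39 numbers did not pass and ranged from -0.24 (Rab36) to 0.39 (Rab38). The members with the lowest control signals were Rab39a, Syn3 and Rab37, all below the limit for testing, with control signals of 0.641 to 4.72, 0.990 to 5.72 and 1.72 to 10.9.

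**Figure D2:**
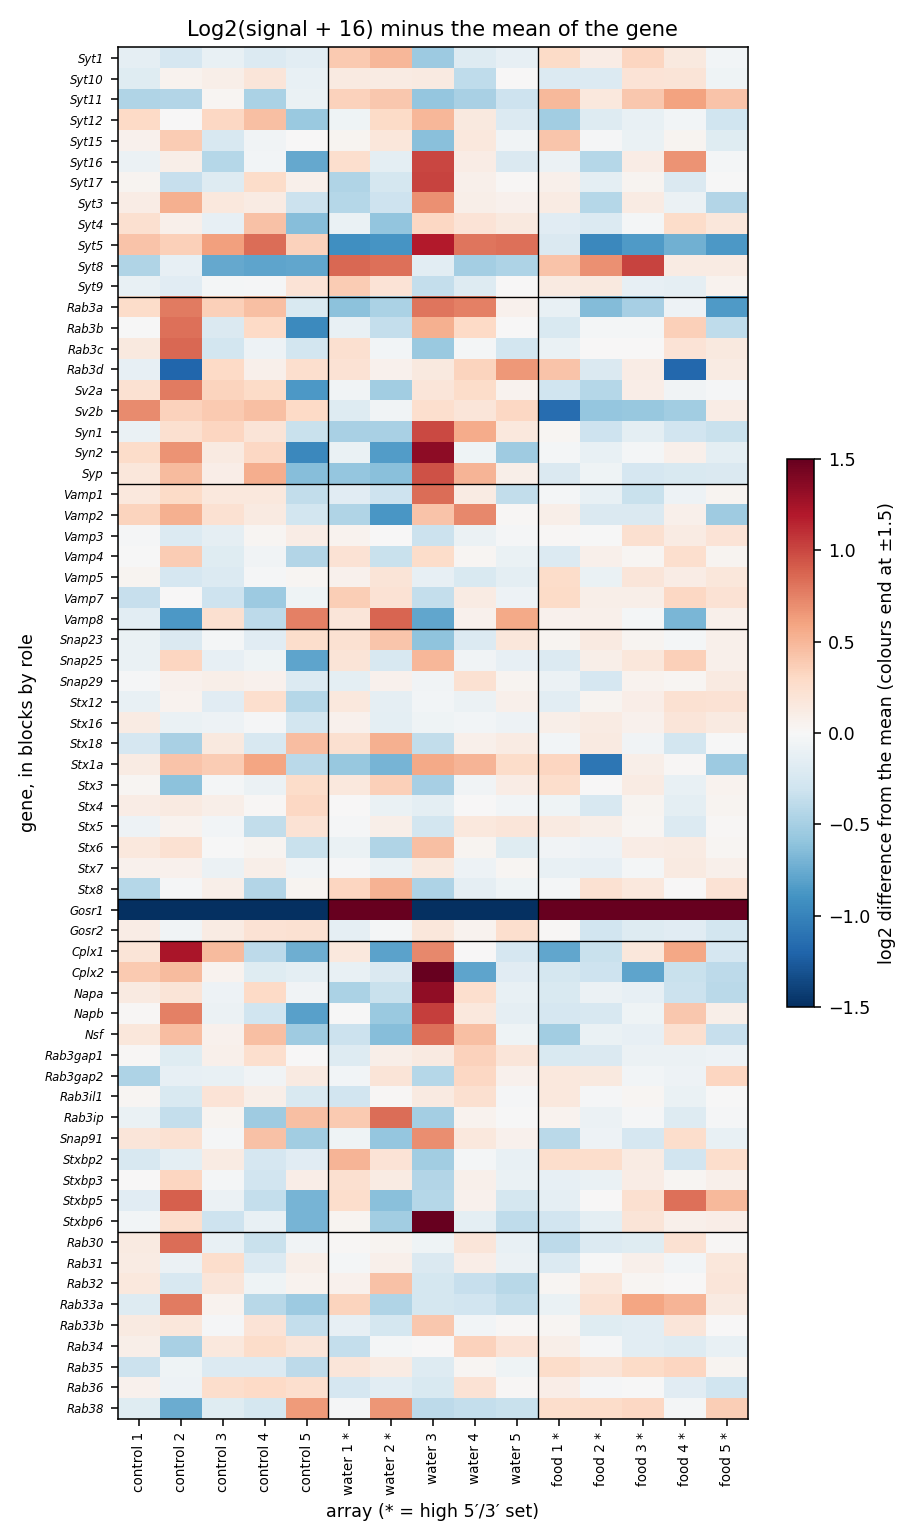
Log2(signal + 16) of each tested member minus its own mean, with arrays in columns by group (an asterisk marks the high 5′/3′ set), genes in rows by role and colours that end at ±1.5. Water-deprived arrays 1 and 2 resemble the food-deprived columns in Gosr1, Syt8 and Syt11, and water-deprived array 3 has the highest signal in Napa and Cplx2.

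In all, 10 of the 66 members had the 5 food-deprived arrays clear of the 5 controls (6 higher and 4 lower), as had 12.1% of all genes (6.82% higher and 5.24% lower). They are Gosr1, Rab35, Syt1, Syt11, Syt8 and Vamp7 above and Cplx2, Napa, Sv2b and Syt5 below.

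Genes with several probe sets give an inner check, since their probe sets may read different stretches of a transcript. The positions of the probe sets were not looked at. Of the 77 members, 32 have several probe sets and 21 have several that were tested. Between food deprivation and control, the probe sets of 12 of these 21 genes differed in sign, and the median distance between the highest and lowest probe set of a gene was 0.45. These were 7 genes and 0.37 with the array set term. No gene had probe sets that passed in opposite directions. Over all probe sets of the members, 7 were higher and 2 lower of 92, against 4.77% higher and 3.76% lower (8.53% in all) of all probe sets.

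Another 3 genes passed only by a probe set other than their brightest. For Rab34, a GTPase of Golgi and cilia, the second probe set (1375558_at) gave 26.8 to 36.1 in control, 24.7 to 78.2 in water deprivation and 59.9 to 78.4 in food deprivation, a rise of 0.83 (SE 0.17, adjusted p = 0.00937), where the brightest gave -0.12 (SE 0.15). For Vamp1 a probe set at signals of 3.82 to 51.1 rose by 0.81 (SE 0.21, adjusted p = 0.0318), against -0.18 for the brightest. The lowest array of that dim probe set lay under the limit for testing, so the size of its rise is uncertain. For Nsf a probe set at 45.0 to 100.4 rose by 0.46 (SE 0.13, adjusted p = 0.0386), against -0.29. The same differences were 0.17, 0.63 and 0.12 with the array set term, and none passed.

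**Figure D3:**
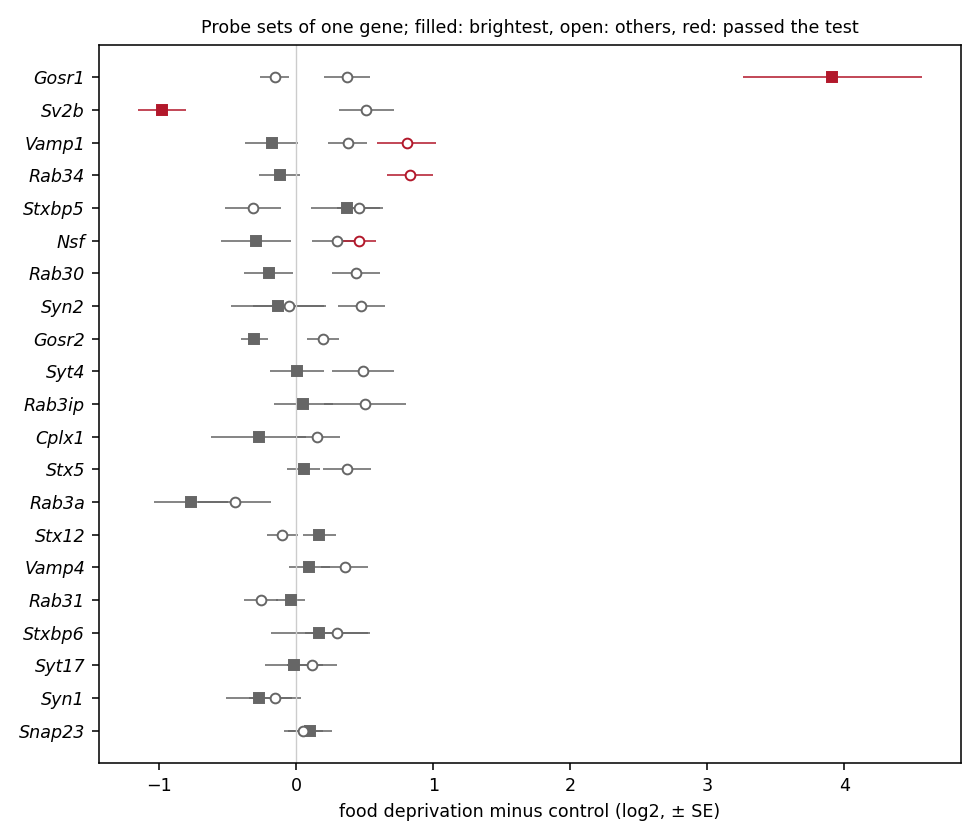
Difference between food deprivation and control (log2, ± SE) for every tested probe set of the 21 members that have several, with the brightest filled, the others open and red for those that passed. Gosr1 spans from -0.16 to 3.91 and Sv2b from -0.98 to 0.51.

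The second comparison, of water deprivation and control, asks which members differ when rats lack water. No member passed: 0 of 66, beside 0.00869% of all genes (1 of 11510), and 5 members had an unadjusted p under 0.05, as had 6.59% of all genes. The smallest adjusted p among members was 0.719, and 64 of the 66 differed by less than 1.5-fold. Their median was 0.03, against 0.00 for all genes. The largest difference was that of Gosr1, 1.44 (SE 0.65, adjusted p = 0.752), which averages 2 arrays at 774 and 947 with 3 at 49.0 to 54.3. The Gosr1 difference with the array set term was -0.04 (SE 0.15), and again no member passed (0.0434% of all genes did), with 3 members and 5.34% of all genes at an unadjusted p under 0.05. In 1 member alone were the 5 water-deprived arrays clear of the 5 controls: Stx4, a plasma membrane syntaxin of many cell types, at 322 to 359.8 against 364 to 446, a difference of -0.19 (SE 0.08, adjusted p = 0.752). The share of all genes with groups apart was 0.791% (0.46% higher and 0.33% lower). The vesicle proteins Syp, Syn1, Syn2 and Sv2a differed by -0.06, 0.08, -0.12 and -0.17, and Snap25 by 0.21 (SE 0.18), and their groups overlapped.

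Water deprivation was also set against food deprivation. None of the 66 members passed, beside 0.0956% of all genes (11 of 11510), and 8 had an unadjusted p under 0.05, as had 12.5% of all genes. Gosr1 had the smallest adjusted p, at -2.48 (SE 0.65, adjusted p = 0.104), followed by Sv2b at 0.64 (SE 0.17, adjusted p = 0.110). Without water-deprived array 1, 3 members passed (Gosr1, Sv2b and Syt5), without water-deprived array 2 Gosr1 alone passed, and without food-deprived array 5 Sv2b alone passed. Stx16, a Golgi syntaxin, was the 1 member with groups apart, at 245 to 285 in water deprivation and 286 to 312 in food deprivation (difference -0.17, SE 0.08, adjusted p = 0.340), beside 3.15% of all genes (1.36% higher and 1.8% lower). No gene of the 11510 passed with the array set term, and 2 members and 11.1% of all genes had an unadjusted p under 0.05. These comparisons share arrays with that of food deprivation and control, so their values are not independent of it.

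The water-deprived group spans both array sets, which allows a contrast with no difference in label: arrays 1 and 2 (high 5′/3′ ratio) against arrays 3, 4 and 5 (low), in the fit with the array set term. This contrast was chosen after the data had been seen. In it 15 of 66 members passed (22.7%), against 14.6% of all genes, of which 6.48% were higher and 8.09% lower. Higher on arrays 1 and 2 were Gosr1 by 3.68 (SE 0.19, adjusted p = 9.55e-08), Syt8 by 1.22, Syt11 by 0.84, Rab3ip by 0.78, Syt1 by 0.73, Stx8 by 0.65, Rab32 by 0.59 and Syt9 by 0.48. Lower were Syt5 at -1.84 (SE 0.21, adjusted p = 0.000152), Syp at -1.12, Rab3a at -1.08, Stx1a at -1.08, Syn1 at -1.06, Vamp2 at -1.05 and Napa at -0.90. Of the 7 lower members all but Syt5 are on the list of core neuronal release genes, as is Syt1 among the 8 higher. Syt8 lay under the limit for testing on arrays 3, 4 and 5. It was thus tested through the arrays where it was higher, and the size of its difference is uncertain. Syt9, with a mean of 5.17 over all arrays, lay just above the limit of 5.11. After median centring 16 passed, 4 higher and 12 lower, and the share of all genes under that scaling is not given here.

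The count of 15 rests on few arrays. Leaving out array 1 or 2 leaves 1 array on the high side, which is then assumed to vary like the others. For those fits only effect sizes are given. Without array 1, Gosr1 was at 3.54, Syt5 at -1.82 and Syp at -1.15. Without array 2 they were at 3.83, -1.86 and -1.09. The count was 8 without array 3, whose 5′/3′ ratio is the lowest. The share of all genes in that fit is not given here. Without array 3, Syp was at -0.90 (adjusted p = 0.0608), Rab3a at -0.95 (adjusted p = 0.0694) and Napa at -0.48 (adjusted p = 0.0735), and Syn1, Vamp2 and Syt5 still passed.

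Members took the same sign in this contrast as between food deprivation and control in 51 of 66 cases (77.3%), beside 74.1% of all genes. All 6 members that passed between food deprivation and control had the same sign here, and 4 of the 6 (Gosr1, Syt8, Syt11 and Syt5) passed here too. Rab35 and Sv2b did not, at 0.23 (SE 0.13, adjusted p = 0.232) and -0.37 (SE 0.24, adjusted p = 0.304). For Sv2b the difference between these contrasts, -0.61 (SE 0.29), is the value with the array set term and did not pass.

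**Figure D4:**
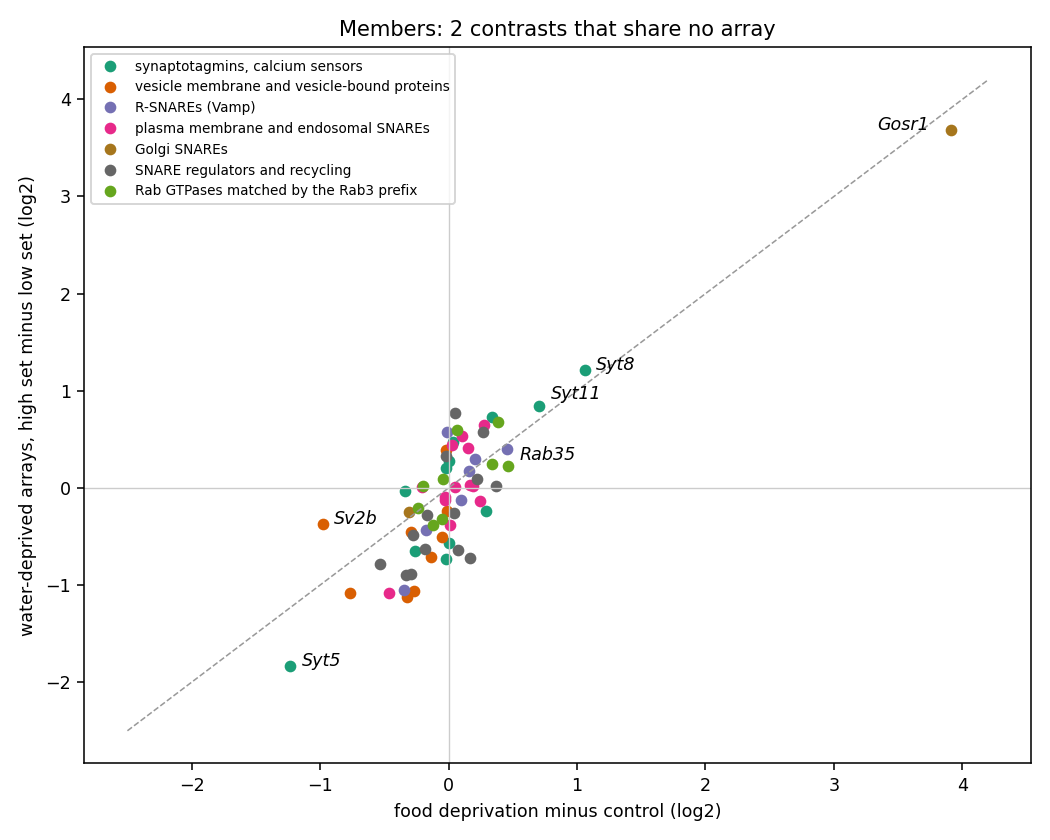
Each tested member by its difference between food deprivation and control (horizontal, log2) and between water-deprived arrays of the high and low 5′/3′ sets (vertical, log2), coloured by role. Gosr1 lies at 3.91 and 3.68, Syt5 at -1.23 and -1.84, and Sv2b at -0.98 and -0.37.

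The core neuronal release genes, 22 listed and 17 tested, were read as a group. Between food deprivation and control 4 were above 0 (Snap25, Syt1, Syt4 and Napb) and 13 below, where 54.5% of all genes were above 0. Their median was -0.29, beside -0.01 for all members. Sv2b was the 1 that passed. Their mean level ran from 7.49 to 8.40 in control, 7.49 to 8.73 in water deprivation and 7.67 to 7.96 in food deprivation, in log2(signal + 16). After median centring 2 of 17 were above 0, and between the water-deprived sets 1 of 17 was. With the array set term 15 of 17 were above 0 between food deprivation and control, beside 51% of all genes. Their median was 0.56. For each gene, the value with the term is the difference without it less the contrast between the water-deprived sets. It is thus not a separate observation, and for some genes it leans on water-deprived array 3. Without that array the values with the term were -0.85 for Cplx2, -0.06 for Vamp1 and 0.03 for Syn2, and 0.58 for both Syp and Syn1.

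Neuron markers were split evenly around 0 between food deprivation and control without the array set term, but not between water deprivation and control. Of 20 tested, 10 were above 0 and 10 below between food deprivation and control, with a median of 0.01 and none that passed, and their mean level ran from 8.23 to 9.70 in control, 8.52 to 9.32 in water deprivation and 8.83 to 9.35 in food deprivation. The array set term put 15 of the 20 above 0, with a median of 0.32. Between water deprivation and control, 3 of the 20 were above 0 and 17 below, with a median of -0.12. None passed, and with the array set term 13 were above 0. Between water and food deprivation, 6 were above 0 and 14 below without the term. Control array 5 was lowest in neuron markers (8.23) and low in the release genes (7.49), and control array 2 was highest in neuron markers (9.70). The release genes lay 1.04 to 1.39 below the neuron markers on the 7 arrays of the high set and 0.60 to 1.30 below on the 8 of the low set.

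Markers of other cell types were read in the same way. Of 15 oligodendrocyte markers tested 13 were above 0 between food deprivation and control (median 0.56, mean level 7.60 to 9.69 in control, 7.51 to 8.85 in water deprivation and 8.55 to 9.20 in food deprivation). Of 11 choroid plexus and ependyma markers 9 were above 0 (median 0.49, mean level 7.69 to 9.89 in control, 7.15 to 10.3 in water deprivation and 8.74 to 9.72 in food deprivation). Those medians were 0.06 and -0.78 with the array set term. Medians were 0.10 for 12 astrocyte and tanycyte markers, 0.06 for 14 microglia markers and 0.13 for 12 endothelial and mural markers, and 0.25, 0.21 and 0.01 with the array set term. Of these marker genes only Glul, Cldn5 and Acta2 passed. Between water deprivation and control, without the term, medians were -0.23 for oligodendrocyte and 0.25 for choroid plexus and ependyma markers. They were -0.04 for astrocyte and tanycyte, -0.24 for microglia and 0.05 for endothelial and mural markers. Between water and food deprivation the medians in that order were -0.71, -0.10, -0.22, -0.23 and -0.14. The part of tissue make-up in the members' differences was not tested.

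**Figure D5:**
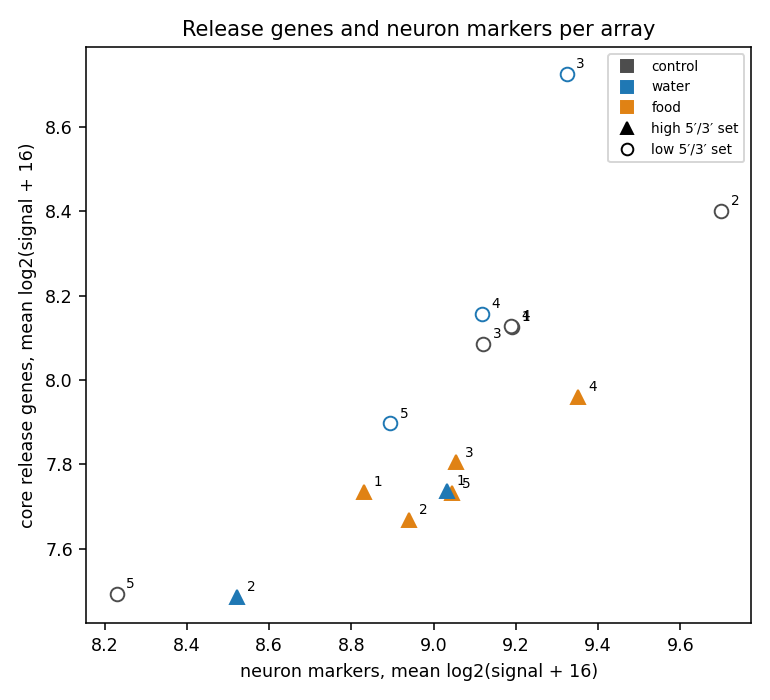
Mean log2(signal + 16) of the 17 tested core release genes (vertical) against that of 20 neuron markers (horizontal) on each array, coloured by group, with triangles for the high 5′/3′ set and open circles for the low set. The 5 food-deprived arrays lie at 7.67 to 7.96 for release genes, and water-deprived array 3 is highest at 8.73.

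The spread between arrays of a group was read as well. The median residual standard deviation was 0.44 for the 17 core genes, 0.26 for the other 49 members and 0.22 for all genes. With the array set term these were 0.34, 0.21 and 0.20. Gosr1, at 1.18, and Cplx2, at 0.85, varied most.

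Genes that work with these families, but outside the rule, were taken from lists of the pathway. Of 20 tested genes of the active zone, the scaffold where vesicles dock, Rims3 rose by 0.58 and Lin7c by 0.54, and Rab27b, a GTPase of secretory granules, fell by 1.24 between food deprivation and control. Of 27 tested transporters and other vesicle proteins, Slc18a2, the vesicular monoamine transporter, rose by 0.57 and Svop by 0.66. Of 24 tested endocytosis genes, Amph (0.78) and Ap2b1 (0.76) rose, and Pacsin1 and Ston2, both proteins of vesicle retrieval, fell by 1.01 and 1.19. Of 23 tested genes on the list of Golgi and endosome partners, which also holds the synaptotagmin-like Sytl genes, Sec22a (0.57), Sytl1 (0.74) and Trappc3 (0.45) rose. These are 3 of 20, 2 of 27, 4 of 24 and 3 of 23, beside 5.73% of all genes. The medians of the 4 lists were -0.07, 0.02, -0.07 and 0.07, and 0.18, 0.41, 0.25 and -0.01 with the array set term. None of these genes passed with the array set term, and none of the lists had a gene that passed in either comparison with water deprivation.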

How the data were processed

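RNA of pooled subfornical organs was amplified, biotin-labelled and hybridised to 15 rat Affymetrix arrays, per the labels' protocols. The authors deposited 1 linear intensity per probe set and array, and GCOS 1.2 is named in the submitters' processing notes. Every array has the same 2% trimmed mean, so the values were scaled by the authors, and no further normalization was made. Of 31099 probe sets, 57 are controls, 20832 have 1 gene symbol, 436 several and 9831 none in the platform annotation. Tests used R 4.3.3 and limma 3.58.1 on log2(signal + 16): 3 group means, 12 residual degrees of freedom (11 with the array set term), a variance trend, two-sided moderated tests and Benjamini-Hochberg adjustment over probe sets whose mean exceeded the 30th percentile (21729, 11510 genes). The array set splits arrays at a mean log2 5′/3′ ratio of -1. The number of arrays limits the precision. Promoter letters come from RefSeq (GRCr8). Figures used Python 3.11.15 and matplotlib 3.10.9.

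All 77 members matched the RefSeq gene table by gene identifier, and their symbols were the same there. Some other genes of these families are not reported here. Named are the members that passed, the core release genes, both Gosr genes and the 3 members with the highest and the 3 with the lowest control mean. Others are named where they show a range or a group, chosen after their values were seen. The members, gene lists and array set were chosen with earlier results of these data known. Alternatives were the array set term, an offset of 1 or of 64, centring on medians, quantile normalization, a filter at the 50th percentile or none, no variance trend, only the 10 arrays compared, the replicate number as a block, the mean of a gene's probe sets, a minimum of 1.5-fold and leaving out each array.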

Additional observations from a re-analysis of the deposited data

Results flagged for a closer look

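Arrays that stood far from the other 4 of their group, by Dixon's ratio above 0.71, were looked for in 69 groups of 23 named members. Chance gives about 1 in 20, and 4 were found. Cplx2, a complexin, gave 350.4 on water-deprived array 3, where the other water-deprived arrays lay at 14.4 to 32.6. The same gene gave 14.4 on food-deprived array 3, with the others at 24.1 to 27.7. Synaptophysin gave 370 on food-deprived array 2, with the others at 323 to 333. Vamp1 gave 117 on control array 5, with the others at 177 to 195, and that array was also the lowest in neuron markers.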

How the results depend on the processing

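Between food deprivation and control, the count of 6 members was 5 to 8 under changes of scaling, filter, variance trend, probe set summary and minimum fold. It was 6 with an offset of 1, 7 with an offset of 64, 8 after centring on medians and 7 after quantile normalization. A filter at the 50th percentile gave 5, and no filter or no variance trend gave 6. The mean of a gene's probe sets gave 6, with Sv2b lost at -0.24 and Rab34 gained. A minimum of 1.5-fold gave 5, without Rab35. With only the 10 arrays compared, 12 passed (Cplx2, Gosr2, Napa, Rab3a, Syt1 and Vamp7 added), and 4183 of all probe sets in place of 1854. With the array set term 0 members and 0 of all probe sets passed, and 0 members also with any 1 array left out. Syt11 then was at -0.13, Syt5 at 0.60 and Syt8 at -0.16, reversed in sign, and with 1 array left out at -0.21 to -0.056, 0.48 to 0.68 and -0.29 to -0.042. Without the term, leaving out 1 array put them at 0.66 to 0.78, -1.36 to -1.15 and 0.92 to 1.17. Of the 15 such fits, Syt11 passed in 8, Syt5 in 5 and Syt8 in 8. Leaving out 1 array without that term gave 3 to 9 members. The count was 3 (Gosr1, Rab35 and Sv2b) without food-deprived array 1 or 3 or control array 1 or 4, and 9 without water-deprived array 3. It was 0 to 3 between water and food deprivation and 2 to 19 between the water-deprived sets, and 0 throughout between water deprivation and control. Of all probe sets that passed, 1037 of 1854 were higher, against 815 of 1787 after quantile normalization and 652 of 1831 after median centring. Deviations of same-numbered arrays correlated from -0.36 to 0.37. With 5 arrays a group this cannot settle whether the replicate numbers pair the arrays. With the replicate block 4 members passed (Gosr1, Rab35, Sv2b and Syt8) and 1254 of all probe sets. The cause of these changes was not tested. Feeding state, pooled tissue and 5 arrays a group limit all of these results.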
